A study of Mus musculus with 42 samples.

Results

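The proteasome genes of the mouse retina were taken as every gene of the deposited expression table whose symbol begins with Psma, Psmb, Psmc or Psmd followed only by digits, which gave 39 of 25700 genes. The values came from RNA sequencing of whole retinas of C57BL/6J mice, 1 retina per mouse, with 6 mice in each of 7 groups and 42 retinas in all. Normoxia mice breathed 21% O2 at 400 m for 11 weeks from an age of 9.5 weeks. Groups named ZH stayed at 400 m in chambers at normal pressure: 07-06h-ZH received 7% O2 for 6 h at 10 weeks of age, 14-06h-ZH and 14-48h-ZH received 14% O2 for 6 h and 48 h at 9 to 11 weeks, and 14-11w-ZH received 14% O2 for 11 weeks from 9.5 weeks. Groups named JFJ were kept from 9 weeks of age at 3450 m, where the lowered pressure corresponds to about 14% O2, for 48 h (14-48h-JFJ) or 7 weeks (14-07w-JFJ), and their retinas were isolated without a microscope. All mice were of this 1 inbred strain. These ages are those at the start, so Normoxia and 14-11w-ZH mice were of like age when sampled. The mice of the 6 h and 48 h groups and of 14-07w-JFJ were younger. Age and hypoxia cannot be told apart in the comparisons of these groups with Normoxia. Because whole retinas were sequenced, fewer cells of a type and less RNA per cell cannot be told apart.

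Libraries held 13986475 to 33594491 reads in genes (median 18436999) in the 36 of 42 libraries where reads could be worked out. The library names fell into 5 code series: Normoxia and 14-11w-ZH shared one, 14-06h-ZH and 14-48h-ZH shared another, and each of the other groups had its own, so outside the pair Normoxia and 14-11w-ZH, hypoxia and code series cannot be told apart in any comparison with Normoxia. Y-linked genes were expressed in 6 of 6 mice of Normoxia and 14-11w-ZH and in 3 of 6 mice of every other group. The summed level of 5 rod markers was 32964 to 49850 FPKM in all mice, as in retina. Lens crystallins (4 genes) summed to 0.0695 to 43646 FPKM, 5 pigment epithelium and choroid genes to 5.19 to 503 FPKM and 3 erythroid genes to 20.3 to 1493 FPKM, so retinas differed in carried-over tissue. No marker gene was at 0 in all mice of a group.

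The proteasome is the large protease that degrades proteins tagged with ubiquitin. Its barrel-shaped core particle has outer rings of alpha subunits, which gate entry, and inner rings of beta subunits, of which Psmb5, Psmb6 and Psmb7 carry the active sites. A regulatory particle sits on the core: its base holds a ring of ATPases (Psmc genes) that unfold substrates, with Psmd1 and Psmd2 as scaffolds and Psmd4 as a ubiquitin receptor, and its lid, which contains the deubiquitinase Psmd14, removes ubiquitin. Interferon can replace the 3 active-site subunits with Psmb8, Psmb9 and Psmb10, forming the immunoproteasome used in antigen presentation. When proteasome activity is short, the transcription factor Nfe2l1 raises transcription of subunit genes, which it binds at antioxidant-type elements in mammalian promoters.

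Promoters of the members with the smallest p in the comparison with the most calls, 14-48h-JFJ over 14-48h-ZH, are shown because most members moved together there. Each runs 5′ to 3′ over the 250 bases before the RefSeq start (build GRCm38.p6): Psma4 at chr9:54950609-54950858 on the plus strand, Psma1 at chr7:114276117-114276366, Psmb4 at chr3:94886959-94887208 and Psma7 at chr2:180042465-180042714 on the minus strand, and Psmc6 at chr14:45329574-45329823 on the plus strand. Capitals mark matches, on either strand, to TGACNNNGC (the antioxidant or Nfe2l1-type element), CCAAT (the CCAAT box) and ACGTG (the core of the hypoxia element). Psmb1, the next by p, is named only.
Psma4: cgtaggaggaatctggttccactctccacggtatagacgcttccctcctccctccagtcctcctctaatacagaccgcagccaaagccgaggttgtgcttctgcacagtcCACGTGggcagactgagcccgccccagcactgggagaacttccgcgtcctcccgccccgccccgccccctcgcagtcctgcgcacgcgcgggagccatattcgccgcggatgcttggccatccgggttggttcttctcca
Psma1: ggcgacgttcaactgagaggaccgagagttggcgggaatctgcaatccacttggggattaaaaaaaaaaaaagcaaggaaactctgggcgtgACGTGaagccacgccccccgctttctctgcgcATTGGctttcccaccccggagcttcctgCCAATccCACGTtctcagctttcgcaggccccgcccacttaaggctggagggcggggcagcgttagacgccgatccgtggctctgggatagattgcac
Psmb4: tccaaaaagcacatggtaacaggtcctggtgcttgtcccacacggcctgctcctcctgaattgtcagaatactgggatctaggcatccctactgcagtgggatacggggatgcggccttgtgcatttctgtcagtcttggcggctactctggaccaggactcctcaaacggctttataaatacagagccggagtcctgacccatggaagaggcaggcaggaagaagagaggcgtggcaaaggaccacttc
Psma7: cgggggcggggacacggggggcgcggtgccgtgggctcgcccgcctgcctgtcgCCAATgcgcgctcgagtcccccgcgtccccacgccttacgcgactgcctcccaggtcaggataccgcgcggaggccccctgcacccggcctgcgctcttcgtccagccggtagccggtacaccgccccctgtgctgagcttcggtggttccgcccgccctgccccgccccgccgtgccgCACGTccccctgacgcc
Psmc6: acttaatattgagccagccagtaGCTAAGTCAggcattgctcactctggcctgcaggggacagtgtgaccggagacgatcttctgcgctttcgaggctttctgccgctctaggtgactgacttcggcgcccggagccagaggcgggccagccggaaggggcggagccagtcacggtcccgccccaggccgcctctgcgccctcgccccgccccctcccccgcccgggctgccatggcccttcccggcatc
In Psma1 both CCAAT matches, which begin 126 and 98 bases before the start, and both ACGTG matches, at 158 and 91, lie in the same stretch of the promoter. Psma4 holds CACGTG, which reads ACGTG on both strands, 140 bases before the start. Psma7 has CCAAT at 196 and ACGTG at 17 bases before the start, Psmc6 has the only TGACNNNGC match of the 5, at 227 bases, and Psmb4 has none of the 3 motifs in these letters. Over the whole 300-base windows (250 before to 50 after the start), TGACNNNGC was found in 5 of 34 windows of 32 member genes (14.7%, against 12.4% of all 32851 RefSeq windows), CCAAT in 13 (38.2% against 37.4%) and ACGTG in 7 (20.6% against 19.6%). A match describes letters and is not a binding site, and the shares among the members lie close to those of all windows.

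FPKM, the read count of a gene scaled to its length and to the depth of the library, was deposited for every gene. In Normoxia the 34 subunit and chaperone genes other than the inducible and tissue-specific ones had mean levels between 9.05 FPKM (Psmd10) and 141 FPKM (Psmc6) with a median of 74.0, and 33 members of the 39 lay above 10 FPKM. The median of all genes above 0 was 7.63 FPKM. Within the core particle the alpha ring spanned 40.8 (Psma2) to 106 FPKM (Psma7), the structural beta subunits 45.6 (Psmb3) to 128 FPKM (Psmb4) and the constitutive active-site subunits 40.0 (Psmb7) to 126 FPKM (Psmb6). The regulatory particle had a like range, with base ATPases at 30.1 (Psmc2) to 141 FPKM (Psmc6), the 3 other base subunits at 69.4 to 109 FPKM and the lid at 32.8 (Psmd12) to 106 FPKM (Psmd8). The 3 chaperones that assemble the base, Psmd5, Psmd9 and Psmd10, were lower, at 9.05 to 33.0 FPKM.

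These levels depend on the gene length used. The length implied by reads and FPKM was within 1% of the mean length of a gene's transcripts in GENCODE M21 for 90.4% of 16399 genes and for 32 of 37 members, so genes with many short transcript models received a high FPKM. Scaled to the longest transcript instead, the order of the members changed: Psmb6 (101) led before Psmc5 (85.3) and Psmb4 (74.6 FPKM), and Psmc6 stood at 53.9 FPKM. Fold changes between groups of mice do not depend on this choice. The scatter between mice was small: over the 34 genes the median coefficient of variation within a group was 3.91% (14-48h-ZH) to 6.17% (07-06h-ZH).

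At 14% O2 the core particle genes were lower than in Normoxia at 6 h and at 48 h, by no more than 0.35 on the log2 scale. A member was called when the limma p-value, adjusted by Benjamini and Hochberg over all genes tested, was at most 0.05, and fold changes are on the scale log2(FPKM + 0.1). In 14-06h-ZH over Normoxia 24 of 38 tested members fell and 1 rose, where 24.8% of all genes tested were called lower and 9.54% higher. The members' median was −0.14 and that of all genes −0.05. All 7 alpha-ring genes fell (median −0.22), all 4 structural beta genes (−0.24), all 3 constitutive active-site genes (−0.19), 5 of 8 lid genes (−0.16), 3 of 6 base ATPases (−0.10) and 2 of 3 chaperones, Psmd5 and Psmd9. Of the 3 other base subunits Psmd2 rose, and none of the 3 inducible subunits passed the test.

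**Figure D1:**
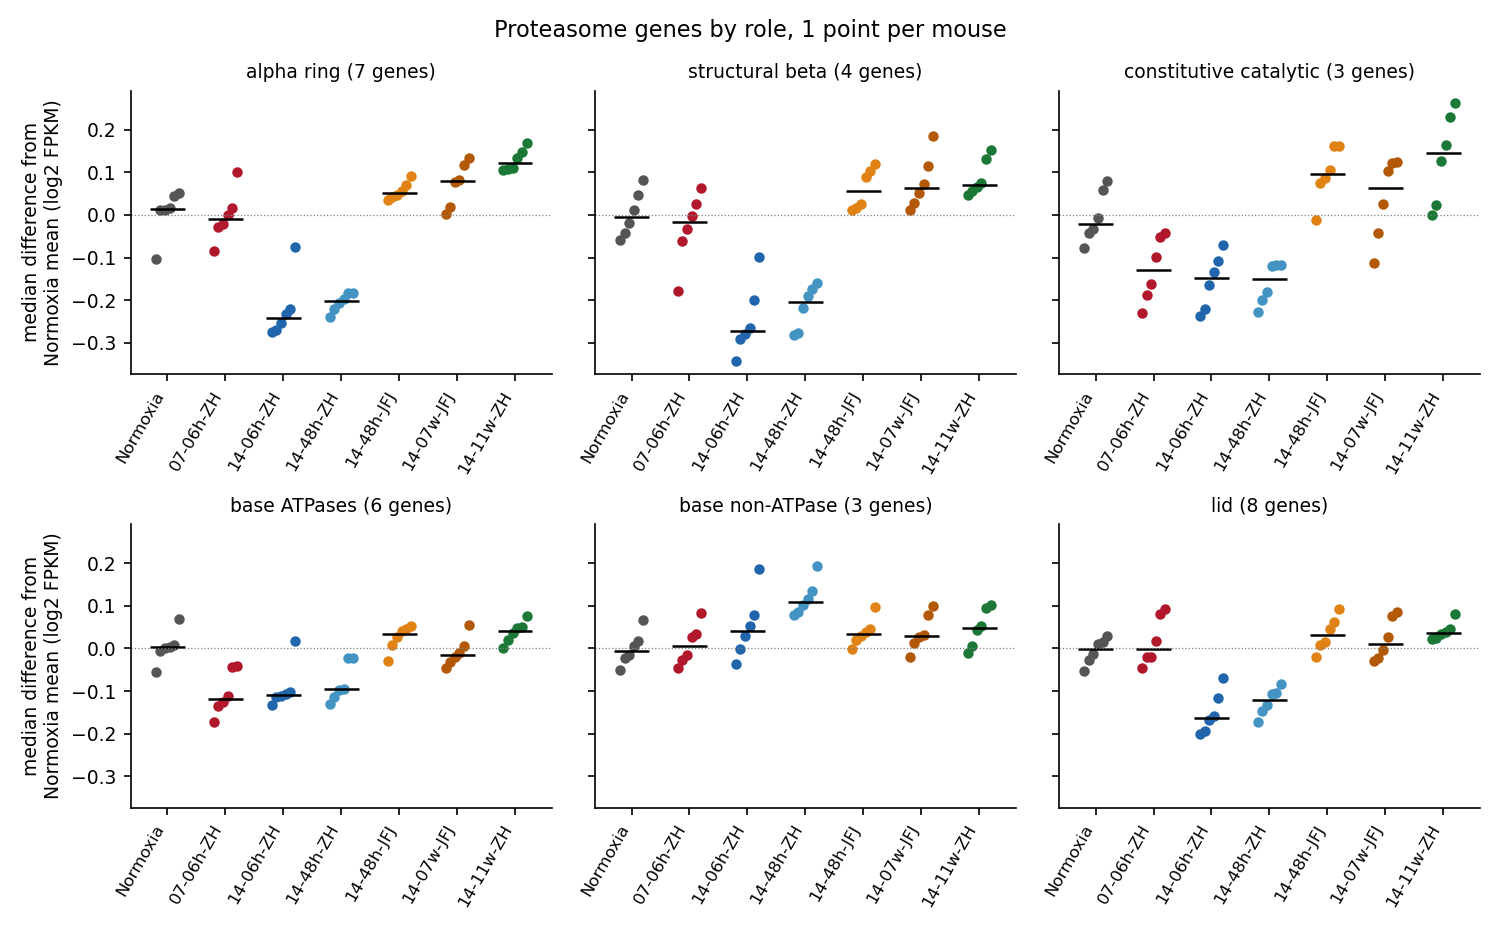
Median log2 difference from the Normoxia mean over the genes of each role, with 1 point per mouse, points sorted by value within a group and the group median as a black bar. In the structural beta panel all mice of 14-06h-ZH and 14-48h-ZH lie below all Normoxia mice, in the alpha ring panel all but 1 do, and the 3 base subunits without ATPase activity lie at or above 0 in most mice.

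The alpha-ring gene Psma3 stood at 73.6, 80.0 and 82.3 FPKM (lowest, median and highest mouse) in Normoxia and at 59.6, 61.2 and 67.3 FPKM in 14-06h-ZH. The groups did not overlap, and Psma3 fell by 0.34 on the log2 scale (SE 0.041, adjusted p = 1.2e-05). Psma1, also of the alpha ring, went from 68.0, 75.2 and 81.2 to 56.4, 59.0 and 67.8 FPKM without overlap (−0.30, SE 0.051, adjusted p = 0.00023). Psmd6, a lid subunit, was at 57.4, 62.1 and 66.2 FPKM in Normoxia and at 47.2, 50.2 and 54.0 FPKM at 6 h, again without overlap (−0.30, SE 0.041, adjusted p = 4.3e-05). Psmb3, a structural beta subunit, had the largest fall, from 39.7, 46.7 and 50.2 to 31.5, 35.5 and 40.8 FPKM (−0.35, SE 0.066, adjusted p = 0.00053), with ranges that overlapped at their ends. Psmb4, another structural beta subunit, went from 122, 129.6 and 135 to 97.8, 104 and 126 FPKM (−0.27, adjusted p = 0.00075), and the single high mouse of 14-06h-ZH reached into the Normoxia range. Psmd2, the scaffold that docks ubiquitin carriers on the base, moved the other way, from 102, 109 and 115 to 118, 122 and 129 FPKM without overlap (0.16, SE 0.035, adjusted p = 0.0015). In all, 11 members were lower and 1 higher without overlap, where 13.8% and 4.4% of all genes were.

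The other members with the largest falls at 6 h were Psma7 of the alpha ring, Psmd8 of the lid and Psmb7, the trypsin-like active site. Psma7 was at 102, 106 and 109 FPKM in Normoxia and 80.5, 88.8 and 103 FPKM in 14-06h-ZH, with overlap (−0.24, adjusted p = 0.00077). Psmd8, one of the last subunits to join the lid, went from 102, 106 and 111 to 84.5, 90.9 and 95.3 FPKM without overlap (−0.23, adjusted p = 0.00015). Psmb7 went from 37.2, 39.3 and 43.2 to 31.6, 34.3 and 37.7 FPKM, with a narrow overlap (−0.22, adjusted p = 0.0026). The deubiquitinase Psmd14 (−0.02, adjusted p = 0.84) and the ubiquitin receptor Psmd4 (0.02, adjusted p = 0.79) did not pass the test.

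After 48 h of 14% O2 23 of 38 tested members were lower and 3 higher than in Normoxia, where 26.7% of all genes were called lower and 9.48% higher, and the members' median was −0.13 against −0.08 for all genes. The falls covered 6 of 7 alpha-ring genes (median −0.21), all but Psma2, all 4 structural beta genes (−0.22), the 3 constitutive active-site genes (−0.16), 5 of 8 lid genes, the ATPases Psmc4, Psmc5 and Psmc6, and the chaperones Psmd9 and Psmd10. Psma3 was at 58.5, 65.8 and 69.0 FPKM (−0.29, SE 0.040, adjusted p = 3.3e-05), Psma7 at 85.3, 88.1 and 89.4 FPKM (−0.27, SE 0.026, adjusted p = 1.4e-06) and Psmb4 at 102, 106 and 111 FPKM (−0.27, SE 0.032, adjusted p = 8.3e-06), each below every Normoxia mouse. Psmd6 was at 47.9, 50.02 and 53.1 FPKM, also without overlap (−0.30, adjusted p = 1.1e-05). Psma1 at 58.9, 61.5 and 65.5 FPKM was clear of Normoxia (−0.27, adjusted p = 0.00013), and Psmb3 at 35.3, 36.3 and 41.2 FPKM was not (−0.28, adjusted p = 0.00087). The risers were all base subunits: Psmd2 at 120.2, 123 and 130.4 FPKM (0.19, adjusted p = 0.00021) and Psmd1, the other scaffold, at 96.1, 98.0 and 104 FPKM against 86.7, 90.8 and 95.3 in Normoxia (0.12, adjusted p = 0.0047) did not overlap with Normoxia, and the ATPase Psmc1 at 123, 126 and 133 FPKM against 109, 117 and 125 did (0.13, adjusted p = 0.0092). Without overlap, 14 members were lower and 2 higher (15% and 5.05% of all genes).

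Of the 3 assembly chaperones of the base, 2 passed the test at each time. Psmd9 was at 21.9, 23.5 and 25.1 FPKM in Normoxia, at 19.1, 21.1 and 23.3 FPKM at 6 h (−0.15, adjusted p = 0.04) and at 18.2, 20.2 and 21.8 FPKM at 48 h (−0.23, adjusted p = 0.0017), where it no longer overlapped with Normoxia. Psmd5 was at 29.0, 33.7 and 34.9 FPKM in Normoxia and at 28.4, 28.9 and 30.5 FPKM at 6 h (−0.17, adjusted p = 0.012), and at 27.6, 30.7 and 32.4 FPKM at 48 h it did not pass the test (−0.11, adjusted p = 0.11). Psmd10 was at 7.55, 9.10 and 10.2 FPKM in Normoxia, at 7.41, 7.75 and 8.58 FPKM at 6 h (−0.19, adjusted p = 0.057) and at 6.84, 7.91 and 8.40 FPKM at 48 h (−0.22, adjusted p = 0.026), with overlap. The 2 durations shared the 6 Normoxia mice. Set against each other directly, 14-48h-ZH and 14-06h-ZH differed in 0 of 38 members by limma (0.74% of all genes were called higher and 0.932% lower), with 2 members at an unadjusted p under 0.05 and 1 call each by edgeR and DESeq2. The largest difference among the members described was that of Psmd8 (0.12, 95% interval 0.05 to 0.19, adjusted p = 0.10).

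**Figure D2:**
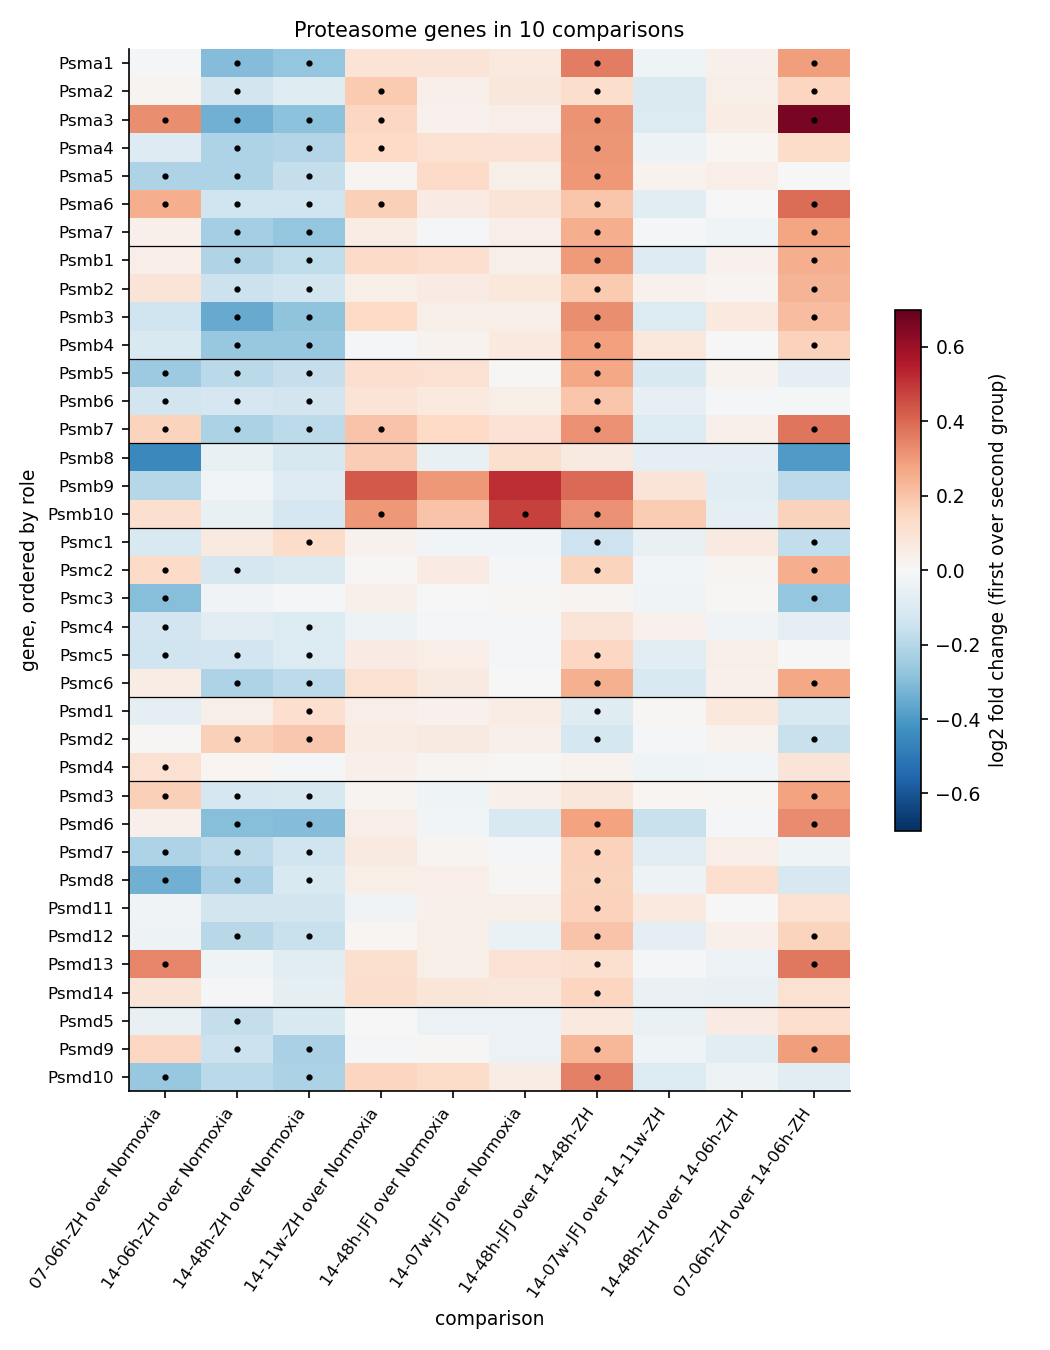
Log2 fold change (color, first over second group) of 37 proteasome genes, ordered by role, in 10 comparisons, with a black dot where the limma adjusted p was at most 0.05. Blue fills the alpha and beta blocks in both 14% O2 comparisons at 6 h and 48 h, Psmd1 and Psmd2 are red there at 48 h, and the column of 14-48h-JFJ over 14-48h-ZH is red in the same blocks.

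Gene length moved with these falls. The members' implied length had a median of 1055 bases against 1881 for all genes, and 33 of the 37 with a value were shorter than that median. Among all genes in 14-06h-ZH over Normoxia the median log2 fold change was −0.23 below 750 bases, −0.17 at 750 to 1000, −0.11 at 1000 to 1500, −0.05 at 1500 to 2500 and 0.02 from 2500 bases on. Members of the same classes were at −0.19 (4 genes), −0.20 (12), −0.13 (15), −0.17 (5) and −0.12 (1). At 48 h the medians of all genes were −0.26, −0.20, −0.15, −0.08 and 0.00, and those of the members were −0.20, −0.17, −0.11, −0.11 and −0.10. Below 1500 bases the members were thus close to other genes of their length, or less lowered at 48 h. With all genes split by longest annotated transcript into 5 classes of equal size, the shortest class had medians of −0.16 at 6 h and −0.20 at 48 h, and the 18 members in it −0.19 and −0.15.

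**Figure D3:**
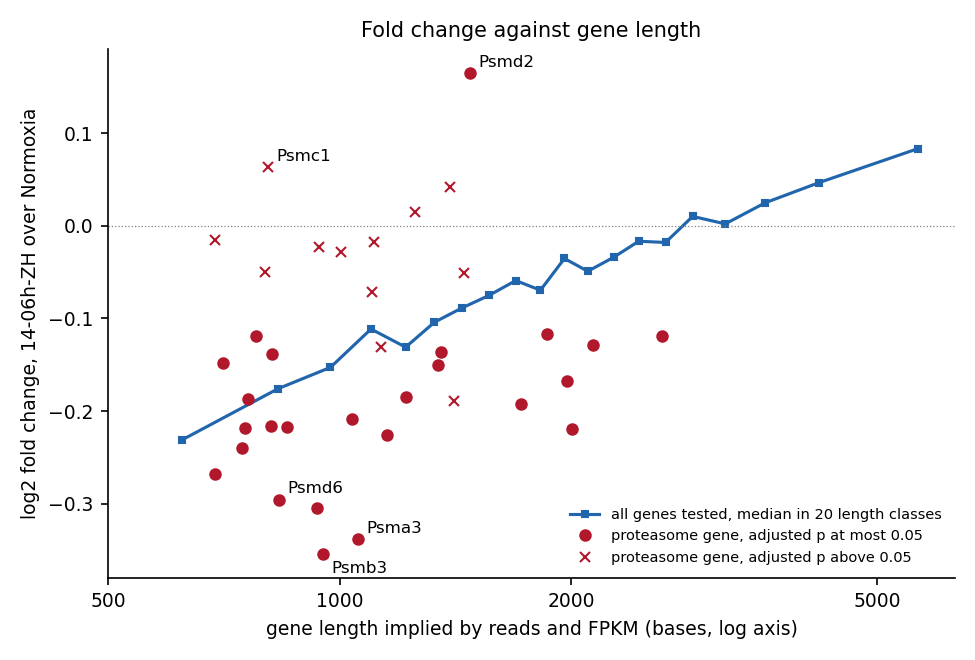
Log2 fold change of each proteasome gene in 14-06h-ZH over Normoxia against gene length (log axis), with filled points for adjusted p at most 0.05 and crosses for others; the blue line gives the median of all genes in 20 length classes. The line climbs with length, most members lie on both sides of it below 1500 bases, Psmb3, Psma3 and Psmd6 lie well under it and Psmd2 well above it.

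With a spline trend on length removed from every library, a choice made after the data were seen, 17 members were lower and 3 higher at 6 h (median −0.11, all genes −0.06), and 12 were lower and 3 higher at 48 h (−0.07, all genes −0.09). Median-of-ratios scaling gave 13 lower and 3 higher at 6 h and 9 lower and 3 higher at 48 h, and a term for Y-linked expression gave 13 lower and 1 higher at 6 h. Through every alternative setting other than leaving out mice, 9 of the members that fell at 6 h (Psma1, Psma3, Psma7, Psmb1, Psmb3, Psmb4, Psmb7, Psmd6, Psmd8) and Psmd2 among those that rose kept their call. At 48 h Psma1, Psma3, Psma7, Psmb3, Psmb4 and Psmd6 did so downward and Psmd1 and Psmd2 upward. The part of the length trend, of the code series and of the share of mice with Y-linked expression in these falls was not separated further, and the Normoxia mice were older at sampling. Lens markers ranged over 31.7 to 28226 FPKM in 14-06h-ZH and 67.7 to 9850 FPKM in 14-48h-ZH against 4.05 to 7200 FPKM in Normoxia, and pigment genes over 16.2 to 36.8 FPKM in 14-48h-ZH against 7.31 to 281 FPKM in Normoxia. All 4 surface epithelium markers were called higher at both times, with sums of 9.91 to 28.8 FPKM at 6 h and 6.78 to 19.9 FPKM at 48 h against 2.64 to 5.73 FPKM in Normoxia, without overlap. At 48 h the summed rod markers (45856 to 49850 against 37947 to 42660 FPKM), 4 Muller glia markers (3373 to 3659 against 2933 to 3112 FPKM) and 5 endothelium markers (60.8 to 72.8 against 48.9 to 55.5 FPKM) also lay above every Normoxia mouse, and at 6 h the Muller glia markers did (3160 to 3508 FPKM). By gene, 2 of 5 rod markers were called higher and 1 lower at 48 h, with a median of −0.02. Of the Muller glia markers 2 were higher and 0 lower at 48 h, and 2 higher and 1 lower at 6 h. Of the endothelium markers 3 were higher and 0 lower at 48 h, and 2 higher and 1 lower at 6 h. Rod markers at 6 h were higher for 1 of 5 genes and lower for 3 (median −0.14). Cone markers at 6 h were higher for 0 of 5 genes and lower for 3 (−0.20), and ganglion markers for 0 of 4 and 2 (−0.16). By 48 h 1 cone and 1 ganglion marker were lower and 0 higher. The part of these markers in the falls was not tested.

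At 7% O2 for 6 h the proteasome genes split rather than moving together. Of 38 tested members 7 rose and 9 fell in 07-06h-ZH over Normoxia, where 18% of all genes were called higher and 24% lower, so the members were called about as often as genes in general (42% in all). Their median was −0.03, as for all genes. The risers were the alpha-ring genes Psma3 and Psma6, the active site Psmb7, the ATPase Psmc2, the ubiquitin receptor Psmd4 and the lid genes Psmd3 and Psmd13. The members that fell were Psma5, the active sites Psmb5 and Psmb6, the ATPases Psmc3, Psmc4 and Psmc5, the lid genes Psmd7 and Psmd8 and the chaperone Psmd10. With median-of-ratios scaling 9 were higher and 6 lower, and with a term for Y-linked expression 3 were higher and 8 lower.

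Psmd13 of the lid was at 49.8, 51.4 and 56.6 FPKM in Normoxia and at 60.2, 66.8 and 69.9 FPKM in 07-06h-ZH (0.34, SE 0.046, adjusted p = 1.9e-05). Psma3 rose from 73.6, 80.0 and 82.3 to 93.0, 98.8 and 108 FPKM (0.33, SE 0.043, adjusted p = 1.4e-05), and Psma6, its neighbor in the alpha ring, from 73.7, 80.9 and 83.2 to 87.6, 95.7 and 105 FPKM (0.25, SE 0.048, adjusted p = 0.00046). All 6 mice at 7% O2 lay above all Normoxia mice in these 3 genes. Psmd13 overlaps the gene Sirt3, which was itself higher (0.18, adjusted p = 0.039), and whether counting used strand is not given in the sources used here, so the reads of both cannot be told apart. In all, 7 members overlapped another gene with a mean of at least 1 FPKM: Psma2, Psmb7, Psmb9, Psmc3, Psmd1, Psmd5 and Psmd13. Psmd8 fell from 102, 106 and 111 to 75.5, 84.3 and 91.2 FPKM (−0.34, SE 0.044, adjusted p = 1.3e-05) and the ATPase Psmc3 from 116, 123 and 126 to 89.3, 98.2 and 114 FPKM (−0.30, SE 0.052, adjusted p = 0.00022). Psmb5, the chymotrypsin-like active site, went from 52.9, 56.6 and 59.1 to 43.2, 46.9 and 51.2 FPKM (−0.26, SE 0.048, adjusted p = 0.0004), and Psmd7, the lid partner of the deubiquitinase Psmd14, from 56.4, 59.9 and 60.9 to 48.2, 51.1 and 53.8 FPKM (−0.22, SE 0.039, adjusted p = 0.0003). These 4 genes also did not overlap between the groups, and in all 3 members were higher and 4 lower without overlap, against 9.34% and 12.5% of all genes. The chaperone Psmd10 was at 7.00, 7.22 and 8.55 FPKM at 7% O2 (−0.26, adjusted p = 0.017, with overlap), and Psmd9 at 22.6, 26.7 and 27.4 FPKM (0.14, adjusted p = 0.051) and Psmd5 at 28.3, 31.9 and 34.7 FPKM (−0.05, adjusted p = 0.53) did not pass. Psma3, Psma6, Psmd13, Psmb5, Psmc3, Psmd7 and Psmd8 kept their calls in every alternative setting other than leaving out mice. Unlike at 6 h and 48 h of 14% O2, all genes showed only a shallow slope with length here (class medians −0.02 to −0.05). With the length trend removed 6 members were higher and 12 lower. The summed pigment genes were 81.7 to 341 FPKM at 7% O2 against 7.31 to 281 FPKM in Normoxia. Lens genes were 0.0695 to 117 FPKM against 4.05 to 7200 FPKM. The summed endothelium markers were 37.3 to 46.0 FPKM against 48.9 to 55.5 FPKM without overlap. The endothelium genes did not move together, with 2 of 5 called higher and 2 lower. Rod markers were lower for 4 of 5 genes and higher for 1 (median −0.26). Their sums overlapped, at 40019 to 43450 against 37947 to 42660 FPKM. Ganglion markers were higher for 2 of 4 genes and lower for 0. Erythroid genes were higher for 2 of 3 and lower for 0 (median 2.59), with sums of 73.5 to 1493 against 20.3 to 448 FPKM. The part of these markers was not tested.

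Set directly against each other at 6 h, most alpha-ring genes and the structural beta genes stood higher at 7% O2 than at 14% O2. The 2 groups came from different code series, so dose and code series cannot be told apart here. In 07-06h-ZH over 14-06h-ZH 17 of 38 members were higher and 3 lower (25.8% and 19.7% of all genes), with a median of 0.12 against 0.03 for all genes. The higher members included 5 of 7 alpha-ring genes, all 4 structural beta genes, 1 active site, 2 ATPases, 4 lid genes and the chaperone Psmd9. Psma3 had the largest difference of any member, 93.0 to 108 FPKM at 7% O2 against 59.6 to 67.3 FPKM at 14% O2 (0.67, SE 0.048, adjusted p = 2.4e-08). Psma6 differed by 0.39 (SE 0.049, adjusted p = 7.0e-06), from 68.7, 72.4 and 76.7 FPKM at 14% to 87.6, 95.7 and 105 FPKM at 7% O2. Psmb7, at 41.3, 43.4 and 50.8 FPKM at 7% O2, differed by 0.38 (adjusted p = 5.2e-05), Psmd13 by 0.37 (adjusted p = 2.5e-05) and Psmd6, at 58.7, 64.3 and 67.1 FPKM, by 0.33 (adjusted p = 2.6e-05). These 5 genes did not overlap between the doses. Psma1 (0.29, adjusted p = 0.00037), the chaperone Psmd9 (0.29, adjusted p = 0.00082) and the lid gene Psmd3 (0.28, adjusted p = 0.0002) were also higher at 7% O2. Psmd2 (−0.16, adjusted p = 0.0029), Psmc1 (−0.17, adjusted p = 0.0018) and Psmc3 (−0.27, adjusted p = 0.00099) were lower at 7% O2. Among all genes this contrast also had a slope with length, from 0.24 below 750 bases to −0.07 from 2500 bases on, and with that trend removed 13 members were higher and 9 lower. Without overlap 8 members were higher and 2 lower (14.5% and 9.76% of all genes). Tissue markers moved with this contrast: 4 of 4 lens genes were called lower at 7% O2 (median −7.58, sums of 0.0695 to 117 against 31.7 to 28226 FPKM), 3 of 3 tested surface epithelium genes lower (median −3.18, 0.398 to 3.81 against 9.91 to 28.8 FPKM) and 3 of 3 erythroid genes higher (median 2.89, 73.5 to 1493 against 27.5 to 65.3 FPKM). Their part in the members' differences was not tested.

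After 11 weeks at 14% O2 no member was called lower than in Normoxia. In 14-11w-ZH over Normoxia, the pair with a shared code series, like age and the same Y-linked expression, 6 of 37 tested members were higher and 0 lower by limma, where 2.02% of all genes were called higher and 1.94% lower (3.96% in all). The median was 0.06 for the members and 0.01 for all genes, and 16 members were at an unadjusted p under 0.05. All genes had a slope with length here too, with class medians of 0.08, 0.05, 0.03, 0.01 and −0.02 from the shortest to the longest genes. Members of these classes were at 0.05, 0.10, 0.06, 0.02 and 0.01. With the length trend removed 2 members were higher (median 0.04 against 0.01 for all genes). The 6 members called in the main fit were 4 alpha-ring genes, Psma2, Psma3, Psma4 and Psma6, the active site Psmb7 and its inducible counterpart Psmb10. Psma2 was at 44.1, 46.5 and 48.9 FPKM against 37.1, 41.2 and 42.3 in Normoxia (0.18, SE 0.039, adjusted p = 0.02). Psmb7 was at 43.6, 45.2 and 48.6 FPKM (0.20, SE 0.044, adjusted p = 0.023) and Psma6 at 85.2, 89.7 and 94.0 FPKM (0.17, SE 0.037, adjusted p = 0.025). Psma3 was at 82.5, 88.3 and 90.0 FPKM (0.14, adjusted p = 0.03) and Psma4 at 81.1, 84.2 and 90.0 FPKM against 73.5, 76.6 and 80.6 (0.14, adjusted p = 0.035). These 5 genes lay above every Normoxia mouse, against 1.51% of all genes, and 0 members lay below (1.36%). Psma2 overlaps AW209491, so its reads may be shared.

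These calls were thin. edgeR and limma without the trend and robust options each called 0 of them and DESeq2 called 2, and leaving out 1 mouse left 1 (Normoxia replicate 5), 2 (14-11w-ZH replicate 2), 3 (Normoxia replicate 6 or 14-11w-ZH replicate 1, 5 or 6) or up to 5. None of the 6 kept its call in every alternative setting. The chaperones did not pass in 14-11w-ZH: Psmd5 was at 31.6, 32.5 and 35.8 FPKM (0.00, adjusted p = 0.99), Psmd9 at 22.1, 23.3 and 24.4 FPKM (−0.01, adjusted p = 0.94) and Psmd10 at 9.47, 9.99 and 10.5 FPKM (0.15, adjusted p = 0.25). The per-mouse median over the 34 core genes, as a log2 difference from the Normoxia mean, was 0.049 to 0.099 in the 6 mice of 14-11w-ZH, −0.034 to 0.022 in Normoxia, −0.20 to −0.071 in 14-06h-ZH and −0.19 to −0.10 in 14-48h-ZH.

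Under the lowered pressure of the mountain site few proteasome genes differed from Normoxia. In 14-48h-JFJ over Normoxia 0 of 38 members passed limma's threshold (2.67% of all genes were called higher and 2.65% lower, 5.33% in all), 7 were at an unadjusted p under 0.05, and edgeR and DESeq2 also called 0. In 14-07w-JFJ over Normoxia 1 of 37 members was called, Psmb10, which rose, and 0 lower (1.47% and 0.577% of all genes, 2.04% in all), with 5 at an unadjusted p under 0.05. Psma3 at 77.2, 80.3 and 84.2 FPKM in 14-48h-JFJ and 75.0, 79.7 and 98.7 FPKM in 14-07w-JFJ had 95% intervals of −0.05 to 0.10 and −0.07 to 0.17 around its log2 differences of 0.03 and 0.05. In 14-48h-JFJ 0 members were clear of Normoxia in either direction (1.77% of all genes were higher and 1.83% lower without overlap), and in 14-07w-JFJ 0 were lower without overlap (0.83%). The base chaperones in 14-07w-JFJ were at 27.7, 32.2 and 36.6 FPKM (Psmd5), 21.1, 22.6 and 25.9 FPKM (Psmd9) and 7.90, 9.49 and 10.7 FPKM (Psmd10), with differences from Normoxia of −0.04, −0.04 and 0.05 that did not pass the test.

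The 48 h groups at like O2 supply, one at normal and one at lowered pressure, differed in most members. In 14-48h-JFJ over 14-48h-ZH 27 of 38 members were higher and 3 lower, where 30.9% of all genes were called higher and 8.66% lower, and the median was 0.20 for the members and 0.11 for all genes. All 7 alpha-ring genes (median 0.30), all 4 structural beta genes (0.29), the 3 constitutive active sites (0.27), 7 of 8 lid genes, 3 ATPases, the chaperones Psmd9 and Psmd10 and the inducible Psmb10 were higher. The 3 lower members were the base subunits Psmc1 (−0.15, adjusted p = 0.0031), Psmd1 (−0.09, adjusted p = 0.034) and Psmd2 (−0.13, adjusted p = 0.0045).

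Psma1, whose promoter is printed above, was at 75.4, 78.3 and 83.9 FPKM in 14-48h-JFJ and at 58.9, 61.5 and 65.5 FPKM in 14-48h-ZH (0.36, SE 0.036, adjusted p = 1.4e-06). Psma4 was at 78.6, 82.8 and 88.2 against 65.1, 66.8 and 67.8 FPKM (0.31, SE 0.031, adjusted p = 1.2e-06), and Psma5 at 42.5, 46.1 and 49.0 against 36.0, 37.0 and 37.5 FPKM (0.30, SE 0.038, adjusted p = 1.1e-05). In all 3 alpha-ring genes every mountain mouse lay above every 14-48h-ZH mouse. Psmb3 at 43.0, 46.8 and 51.2 FPKM (0.33, SE 0.050, adjusted p = 8.4e-05), Psmb7 at 39.6, 44.3 and 47.6 FPKM (0.32, SE 0.041, adjusted p = 1.5e-05) and Psma3 (0.32, SE 0.039, adjusted p = 1.1e-05) were likewise clear of the 14-48h-ZH mice. Psmd10 at 8.34, 9.96 and 11.5 FPKM (0.35, SE 0.075, adjusted p = 0.0014) overlapped with them, and Psmd9 at 22.9, 23.6 and 24.1 FPKM (0.23, SE 0.043, adjusted p = 0.0004) did not. Psmd5 was at 28.1, 32.4 and 34.2 FPKM and did not pass (0.07, adjusted p = 0.31). Without overlap 20 members were higher and 2 lower (15.6% and 4.81% of all genes).

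All genes had a slope with length in this contrast too, with class medians of 0.36, 0.27, 0.19, 0.10 and 0.01 from the shortest to the longest genes, and members at 0.22, 0.28, 0.15, 0.12 and 0.16. With the length trend removed 14 members were higher and 4 lower (median 0.09 against 0.12 for all genes), and with median-of-ratios scaling 18 were higher and 4 lower. The calls of Psma1, Psma3, Psma4, Psma5, Psmb1, Psmb3, Psmb7, Psmc1, Psmd2, Psmd6 and Psmd10 held in every alternative setting other than leaving out mice. The JFJ retinas carried 28.4 to 497 FPKM of summed pigment genes and 10.4 to 43646 FPKM of lens genes, those of 14-48h-ZH 16.2 to 36.8 and 67.7 to 9850 FPKM, and summed rod genes were 32964 to 39037 FPKM against 45856 to 49850 FPKM without overlap. The Muller glia markers (2972 to 3367 against 3373 to 3659 FPKM) and the endothelium markers (52.3 to 60.54 against 60.8 to 72.8 FPKM) did not overlap either. By gene, 1 of 5 rod markers was called higher and 2 lower (median −0.05). For Muller glia 0 of 4 were higher and 3 lower, and for endothelium 1 of 5 was higher and 1 lower (median 0.03). Cone markers were higher for 4 of 5 genes and lower for 0 (median 0.22). Their sums were 1194 to 1356 against 885 to 1074 FPKM, without overlap. Ganglion markers were higher for 3 of 4 genes (0.21), erythroid for 3 of 3 (1.47) and pigment for 4 of 5 (2.99), with 0 lower in each. Amacrine markers were higher for 0 of 4 genes and lower for 2. The part of these markers in the members' differences was not tested, and pressure, site, light cycle, dissection and code series cannot be told apart.

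For the long exposures, 14-07w-JFJ and 14-11w-ZH differed in 0 of 37 members by limma (1.07% of all genes higher, 0.47% lower), with 3 at an unadjusted p under 0.05, and DESeq2 called 1. Psmd6 was lower at the mountain site without overlap, at 53.9, 57.8 and 61.5 FPKM against 62.1, 63.5 and 67.8 FPKM (−0.15, 95% interval −0.24 to −0.07, adjusted p = 0.067), the single member of which this held, where 0.751% of all genes were lower without overlap. Besides pressure, the groups differed in duration (7 and 11 weeks), in age when sampled, site, light cycle, dissection and code series. Y-linked genes were expressed in 3 of 6 and 6 of 6 mice. None of these can be told apart here.

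The inducible active sites were far below the constitutive ones in retina. In Normoxia Psmb8 had a mean of 1.95 ± 0.456 FPKM (SD, n = 6), Psmb9 1.24 ± 0.256 and Psmb10 8.86 ± 0.90 FPKM, and their shares of the pairs they form with the subunits they replace were 3.35% of Psmb8 and Psmb5, 0.97% of Psmb9 and Psmb6 and 18.2% of Psmb10 and Psmb7. These shares rest on the mean transcript lengths used for FPKM. Psmb10, the trypsin-like inducible subunit, was at 7.90, 8.82 and 10.2 FPKM in Normoxia, at 9.80, 10.5 and 13.3 FPKM in 14-11w-ZH and at 10.3, 11.9 and 17.0 FPKM in 14-07w-JFJ. It rose in both, by 0.30 (SE 0.082, adjusted p = 0.049) with overlap and by 0.48 (SE 0.105, adjusted p = 0.029) without overlap, against 1.34% of all genes higher without overlap in the latter. Both comparisons share the Normoxia mice, and in the latter the 14-07w-JFJ mice were younger when sampled. By edgeR and by limma without the trend and robust options Psmb10 was called in neither comparison. In the latter it was also not called with the term for Y-linked expression.

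In 14-48h-JFJ Psmb10 stood at 9.83, 10.05 and 11.1 FPKM, above every mouse of 14-48h-ZH at 7.01, 8.09 and 9.32 FPKM (0.32, SE 0.072, adjusted p = 0.002). At 7% O2 it was at 8.17, 9.43 and 11.3 FPKM (0.11, adjusted p = 0.35) and in 14-06h-ZH at 6.49, 8.48 and 11.8 FPKM (−0.05, adjusted p = 0.78). Its share of the pair with Psmb7 was 22.4 ± 2.84% in 14-07w-JFJ and 18.2 ± 1.87% in Normoxia (SD, n = 6 each).

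**Figure D4:**
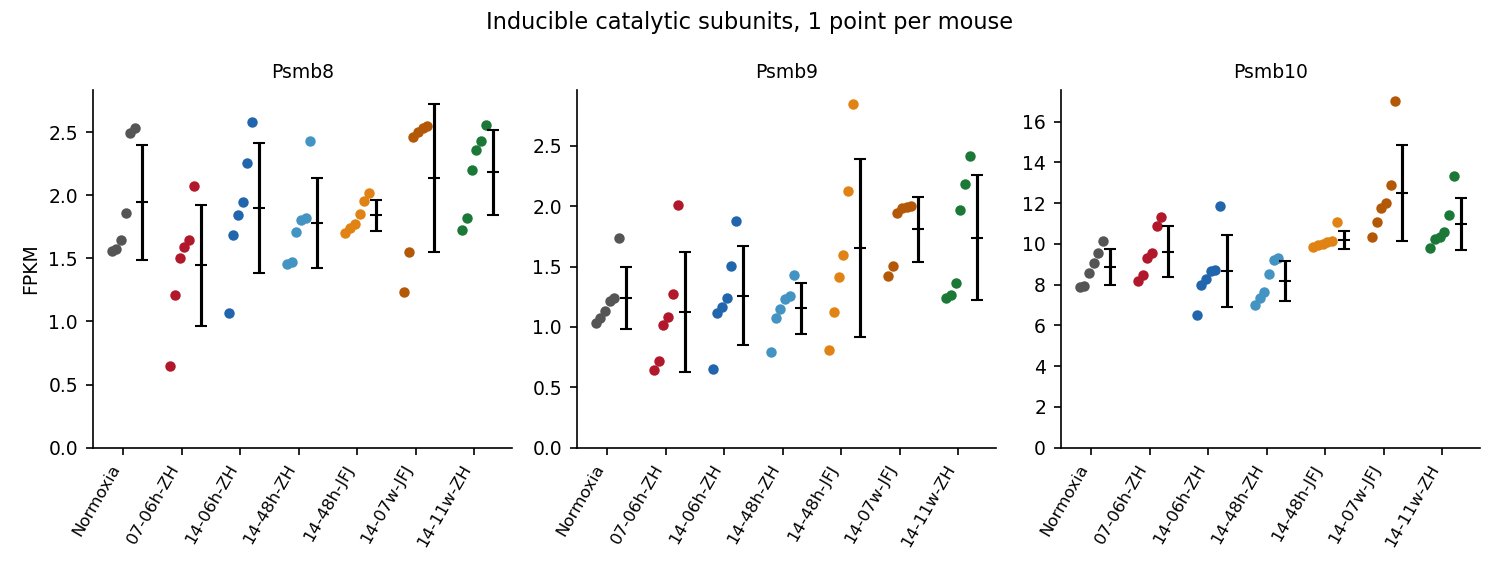
FPKM of Psmb8, Psmb9 and Psmb10 in each mouse of the 7 groups, sorted by value within a group, with mean and SD as black bars and axes that start at 0. Psmb10 has its highest mouse, 17.0 FPKM, in 14-07w-JFJ, while the ranges of Psmb8 and Psmb9 overlap between all groups and Normoxia.

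Psmb9 and Psmb8 passed the test in none of the 10 comparisons. Psmb9 was at 1.03, 1.18 and 1.73 FPKM in Normoxia, 1.24, 1.67 and 2.42 FPKM in 14-11w-ZH (0.43, 95% interval 0.05 to 0.82, adjusted p = 0.20) and 1.42, 1.97 and 2.00 FPKM in 14-07w-JFJ (0.52, 95% interval 0.20 to 0.84, adjusted p = 0.086). Psmb9 overlaps Tap1, a peptide transporter gene, so reads of both may be shared. Psmb8 was at 1.56, 1.75 and 2.54 FPKM in Normoxia and 0.645, 1.54 and 2.08 FPKM at 7% O2 (−0.45, 95% interval −0.92 to 0.02, adjusted p = 0.12). In 14-06h-ZH Psmb8 was at 1.07, 1.90 and 2.58 FPKM, in 14-48h-ZH at 1.45, 1.76 and 2.43 FPKM and in 14-48h-JFJ at 1.70, 1.81 and 2.02 FPKM, and in 14-11w-ZH and 14-07w-JFJ its medians were 2.28 and 2.48 FPKM. Every group overlapped with Normoxia in both genes, and the intervals allow changes as large as those of the called members. Among 16 interferon and antigen presentation genes 1 was higher and 1 lower at 7% O2, 2 and 1 at 14% for 6 h, 0 and 4 at 14% for 48 h, 0 and 0 in 14-11w-ZH and 14-48h-JFJ, and 1 and 0 in 14-07w-JFJ, each over Normoxia. Over all genes the shares called higher and lower were 18% and 24% at 7% O2, 9.54% and 24.8% in 14-06h-ZH, 9.48% and 26.7% in 14-48h-ZH and 1.47% and 0.577% in 14-07w-JFJ, so the 4 of 16 lower at 48 h lay near the share of all genes. B2m, the light chain of class I antigen presentation, was at 32.6, 39.1 and 58.1 FPKM in Normoxia and at 22.2, 24.5 and 28.9 FPKM in 14-48h-ZH (−0.69, SE 0.123, adjusted p = 0.00078), without overlap. The summed level of 6 microglia genes was 9.51 to 16.3 FPKM over all mice. In 14-07w-JFJ, where Psmb10 rose without overlap, it was 12.4 to 13.9 FPKM against 10.1 to 11.4 FPKM in Normoxia, also without overlap, with 1 of the 6 genes called higher. The surface epithelium markers there were at 13.0 to 35.9 against 2.64 to 5.73 FPKM, with 3 of 4 called higher. Their part in the rise of Psmb10 was not tested.

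Psma8, an alpha subunit of testis, and Psmb11, a beta subunit of the thymic cortex, were at or near 0. Psma8 was listed at 0 in 19 of 42 libraries with a highest value of 0.165 FPKM (14-48h-JFJ), and Psmb11 was at 0 in 32 libraries with a highest value of 0.0898 FPKM (Normoxia). Both highest values were in libraries where reads could not be worked out. In the 36 others a library held at most 4 reads of Psma8 and 3 of Psmb11. No fold change is given for either.

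The regulators of the proteasome that carry other names were taken as a list of 37 genes. Nfe2l1, the factor that drives subunit genes, was at 97.8, 100.5 and 102 FPKM in Normoxia, at 112, 119.8 and 125 FPKM in 14-06h-ZH (0.25, SE 0.032, adjusted p = 1.9e-05) and at 115, 118 and 119.7 FPKM in 14-48h-ZH (0.23, SE 0.024, adjusted p = 3.0e-06). At 7% O2 it was lower, at 84.3, 89.4 and 92.9 FPKM (−0.17, SE 0.034, adjusted p = 0.00082), and none of the 3 groups overlapped with Normoxia. It thus stood higher where most core genes stood lower, and its difference between 7% and 14% O2 was −0.42 (SE 0.039, adjusted p = 3.4e-07). In 14-48h-JFJ over 14-48h-ZH it was lower by −0.23 (adjusted p = 1.8e-05), and each of these calls held in all 16 alternative settings. With the length trend removed Nfe2l1 differed from Normoxia by 0.22 at 6 h and 0.19 at 48 h of 14% O2.

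Pomp, the chaperone that matures the core particle, was at 45.4, 48.6 and 52.7 FPKM in Normoxia and at 37.6, 39.3 and 45.6 FPKM at 7% O2 (−0.29, adjusted p = 0.00035), 38.6, 40.4 and 44.0 FPKM in 14-06h-ZH (−0.26, adjusted p = 0.00035) and 39.6, 42.3 and 45.0 FPKM in 14-48h-ZH (−0.21, adjusted p = 0.0014). Akirin2, which brings proteasomes into the nucleus in human cells, fell by 0.54, 0.40 and 0.38 in these 3 groups, from 40.6, 45.9 and 50.03 FPKM in Normoxia to 26.9, 32.5 and 37.4, to 33.3, 34.8 and 36.6 and to 32.1, 35.8 and 36.6 FPKM, each time without overlap. Psmg2, a chaperone of alpha-ring assembly, fell by 0.50, 0.51 and 0.42. The 3 comparisons share the Normoxia mice. At 7% O2 the smallest p among the list belonged to the segregase Vcp (−0.30, adjusted p = 3.1e-06), the inhibitor Psmf1 (0.36) and the shuttle factor Rad23b (0.35). At 48 h of 14% O2 they belonged to the ubiquitin receptor Adrm1 (−0.36) and the ubiquitin-activating enzyme Uba1 (0.30).

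Over the whole list of regulators 9 were higher and 14 lower at 7% O2, 3 and 11 in 14-06h-ZH, 3 and 11 in 14-48h-ZH, 0 and 0 in 14-11w-ZH, 2 and 0 in 14-48h-JFJ and 1 and 0 in 14-07w-JFJ, each over Normoxia, and 15 higher and 6 lower in 14-48h-JFJ over 14-48h-ZH. The shares of all genes called higher and lower were 18% and 24% at 7% O2, 9.54% and 24.8% in 14-06h-ZH, 9.48% and 26.7% in 14-48h-ZH, 2.02% and 1.94% in 14-11w-ZH, 2.67% and 2.65% in 14-48h-JFJ, 1.47% and 0.577% in 14-07w-JFJ and 30.9% and 8.66% in the last comparison, so the 11 of 37 lower at 14% O2 lay near the share of all genes. The called genes of the mountain groups over Normoxia were the assembly chaperones Psmg4 (0.42 at 48 h and 0.51 at 7 weeks) and Psmg1 (0.27 at 48 h). Psmg4 was called in 5 of 16 alternative settings at 48 h and in 14 of 16 at 7 weeks, and Psmg1 in 7 of 16 at 48 h; with the length trend removed both missed the threshold at 48 h (limma adjusted p = 0.098 and 0.093). The activator Psme1, which opens the core together with Psme2, was called in none of the 10 comparisons, and Psme2 was called lower at 7% O2 (−0.14, adjusted p = 0.044), a call that held in 9 of 16 alternative settings and was lost with median-of-ratios scaling (−0.11, adjusted p = 0.13).

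In none of the 10 comparisons did a member pass adjusted p 0.05 with a log2 fold change of at least 1 in size, a threshold that 4.2% of all genes passed at 7% O2, 0.976% in 14-06h-ZH and 0.822% in 14-48h-ZH over Normoxia and 1.32% in 14-48h-JFJ over 14-48h-ZH.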

How the data were processed

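Per the labels and the study's methods, total RNA of single retinas was sequenced, reads were aligned by the authors with STAR (version not given in the sources used here) and the authors deposited 1 table with FPKM and normalized counts (a signal) per gene on mouse build GRCm38; the counting tool and its use of strand are not given in the sources used here. No column of the authors' comparisons was used. FPKM plus a pseudocount of 0.1 was log2 transformed, a gene was dropped if over 3 mice in 1 of the groups had FPKM 0, and each pair of groups was fitted alone with limma 3.58.1 (trend and robust options, R 4.3.3), with Benjamini-Hochberg adjustment over all genes tested; this differs from the study's edgeR test because raw counts were not used here. The lowest normalized counts deposited by the authors were whole multiples of a step per library (100% within 0.1 steps in all 42 libraries). This share was computed on low values only and does not set apart the 36 libraries taken as recoverable, a choice fixed before this step. Reads of these 36 libraries were used by edgeR 4.0.16 and DESeq2 1.42.0 as alternatives. For 6 libraries no reads were worked out, and they were left out of those fits. The 2 tissue-specific members had at most 4 reads in those 36 libraries, and limits on such counts cover counting error alone. Members are all genes matching the symbol rule; values by mouse are given for up to 8 members with the largest change past the threshold in a comparison, the inducible and tissue-specific subunits and the base chaperones, and for the regulators for up to 4 with the smallest p plus Nfe2l1, Pomp, Psme1 and Psme2; B2m and the members with a printed interval were added after their values were seen. Members and lists were chosen with earlier results of these data known. Alternatives were another scaling, pseudocounts of 0.01 and 1, no filter or a mean of at least 1 FPKM, normalized counts, all 7 groups in 1 fit, no moderation options, a term for Y-linked expression, the replicate number as a block, leaving out each mouse, and, chosen after seeing the data, removal of trends on GC content (GENCODE M21, known for 99.6% of genes) and on length. The fits were tested on simulated data. Mice of a group are separate animals. Python 3.11.15 with pandas 2.3.3 summarised the fits.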

Additional observations from a re-analysis of the deposited data

Results flagged for a closer look

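Of 167 sets of 6 mice examined, 12 held a mouse far from the other 5. Chance gives about 1 in 20 for independent sets. These sets share mice, so the 12 cannot be set against that rate. In 14-07w-JFJ the highest mouse stood apart in Psma3 (98.68 FPKM, next 83.46) and a different mouse was highest and apart in Psmd9 (25.89, next 22.75). In 14-06h-ZH the highest mouse stood apart in Psmb4 (126 FPKM, next 107.5) and in Psma4 (79.3, next 65.92). In 14-48h-ZH the highest mouse stood apart in Psmb8 (2.427 FPKM, next 1.817) and in Psma8 (0.1341, next 0.03575) and the lowest in Psmc3 (114.1 FPKM, next 121.6). In Normoxia the highest mouse stood apart in Psmb9 (1.734 FPKM, next 1.239) and in Psma8 (0.119, next 0.03242) and the lowest in Psma2 (37.13 FPKM, next 41.14), a different mouse for each gene. The highest mouse stood apart in Psmb10 of 14-48h-JFJ (11.06 FPKM, next 10.16) and in Psmd6 of 14-11w-ZH (67.8, next 63.73). The values of Psma8 rest on at most 4 reads.

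At 6 h, 5 members were called higher than Normoxia at 7% O2 and lower at 14% O2, and the direct contrast of 7% over 14% O2 was past the limma threshold for each. The difference was 0.6656 on the log2 scale for Psma3, 0.3915 for Psma6, 0.3751 for Psmb7, 0.2832 for the lid gene Psmd3 and 0.2551 for the ATPase Psmc2. The groups came from different library code series and from 10-week-old and 9- to 11-week-old mice, and the part of either was not tested.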

How the results depend on the processing

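For no named member was a call reversed under an alternative. The balance of calls in 07-06h-ZH over Normoxia did turn with median-of-ratios scaling, from 7 higher and 9 lower (median −0.031) to 9 and 6 (median 0.0039), as it did on normalized counts (8 and 6) and without 07-06h-ZH replicate 3 (9 and 8). With the length trend removed, the members' median less that of all genes turned from −0.047 to 0.014 in 14-48h-ZH over Normoxia, from 0.083 to −0.035 in 14-48h-JFJ over 14-48h-ZH, from 0.021 to −0.011 in 14-48h-JFJ over Normoxia and from 0.020 to −0.0074 in 14-07w-JFJ over Normoxia. Counts of members called, of the number tested in each comparison, moved by over 1.5 times as follows. In 14-06h-ZH over Normoxia 25 became 16 with median-of-ratios scaling, 14 with a term for Y-linked expression, 16 on normalized counts, 12 by edgeR and 13 by DESeq2. In 14-48h-ZH over Normoxia 26 became 12 with median-of-ratios scaling, 13 on normalized counts, 13 by edgeR, 12 by DESeq2 and 15 with the length trend removed. In 14-48h-JFJ over 14-48h-ZH 30 became 18 by edgeR, 17 by DESeq2 and 18 with the length trend removed. In 14-11w-ZH over Normoxia 6 became 3 with all 7 groups in 1 fit, 0 without trend and robust options, 0 by edgeR, 2 by DESeq2, 2 with the length trend removed and 2 with GC and length trends removed. In 14-07w-JFJ over Normoxia 1 became 0 without those options, with a term for Y-linked expression and by edgeR. Counts of 0 became 1 with the GC trend removed in 14-48h-JFJ over Normoxia, by DESeq2, with median-of-ratios scaling and with the 7 groups fitted together in 14-07w-JFJ over 14-11w-ZH, and by edgeR, DESeq2 and with GC and length trends removed in 14-48h-ZH over 14-06h-ZH. The edgeR and DESeq2 fits used fewer libraries where reads could not be worked out; beyond that the cause was not tested. Leaving out each mouse in turn gave 13 to 17 calls in 07-06h-ZH over Normoxia, 21 to 26 in 14-06h-ZH, 22 to 27 in 14-48h-ZH, 1 to 5 in 14-11w-ZH and 28 to 31 in 14-48h-JFJ over 14-48h-ZH. For named members 1576 settings kept the call or its absence, 62 lost the call and 16 gained one. A change of direction was looked for only where a member was called in the main or the alternative fit. Replicate numbers do not pair the mice: correlations of same-numbered mice ranged from −0.688 to 0.712 and no comparison had all 6 over 0.1. With the replicate block 5 members were higher and 9 lower at 7% O2, 1 and 22 in 14-06h-ZH, 3 and 22 in 14-48h-ZH, 6 and 0 in 14-11w-ZH, 26 and 2 in 14-48h-JFJ over 14-48h-ZH and 17 and 3 in 07-06h-ZH over 14-06h-ZH. GC content was that of GENCODE M21 transcripts.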
